A study of Drosophila melanogaster with 36 samples.

Results

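Muscle, testis and energy genes were lower in 45d than in 5d males that expressed wild-type fly SOD1 (dSOD1) in motoneurons (MN). Genes for carbohydrate-cleaving enzymes, for proteasome subunits used in all tissues and for DNA damage were mostly higher at 45d. The comparison takes 3 arrays of motoneuron_dSOD1 flies at 45d against 3 arrays of the same cross at 5d, which are 6 of the 36 arrays of the study. Flies carrying the motoneuron driver D42-Gal4 were crossed to flies carrying UAS-dSOD1, male progeny were collected within a day of eclosion, and each array holds RNA from a pool of 40 whole adult males aged 5 or 45 days. Both ages carry the driver and the transgene, and dSOD1 was the study's control for UAS-G85R, a mutant human SOD1. The driver limits the transgene to MN, whereas the RNA comes from every tissue of the fly. No array of flies without a transgene was analysed here, so that ageing as such and ageing under dSOD1 in MN cannot be told apart. Groups from 3 other lines of the same series, aged 5 and 45 days in the same way, serve below only to show where the age change of this line differs: UAS-dSOD1 driven in glia by M1B-Gal4, UAS-dSOD1 driven in MN and glia by both drivers, and UAS-G85R driven in MN by D42-Gal4.

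An adult fly replaces few of its cells, so muscle, fat body and most neurons age with the animal, while the gut and the testis keep dividing stem cells. Muscle contraction and flight depend on dense mitochondria, sperm production depends on a programme of genes used almost solely in the testis, and defence against microbes depends on peptides made by the fat body under the Toll and Imd pathways. SOD1 turns superoxide into hydrogen peroxide, which catalase and peroxiredoxins remove.

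Levels below are the normalised log2 values of the arrays, each value in the order of replicates 1, 2 and 3. Changes are log2 differences, 45d minus 5d, with their SE from a linear model (limma) fitted to all 36 arrays, and "rose" and "fell" stand for a Benjamini-Hochberg adjusted p of at most 0.05 over 18769 probe sets. Arrays carry no absolute scale between probe sets, so a level is compared only with the same gene at the other age. Counts over genes use the probe set with the highest mean level of each gene, for 11981 genes. On the 6 arrays the 3' probe sets of the actin control exceeded the 5' ones by 2.78 to 3.00 at 5d and by 2.66 to 3.07 at 45d, and the median difference of an array from the other arrays of its age ran from 0.0747 to 0.114. Array weights estimated by limma ran from 0.41 for 45d replicate 1 and 0.486 for 5d replicate 2 to 2.876 for 45d replicate 2. The fit also holds an array that stood apart, replicate 2 of 5d flies with G85R in MN+glia, on which the actin difference was 5.72 against 2.39 to 3.25 on the other arrays of the study. Of the markers of a male fly, testis genes averaged 9.0 to 9.12, accessory gland genes 11.07 to 11.20 and chorion genes, which build the egg shell in females, 4.78 to 4.95 on the 5d arrays, which without a common scale is no test of the sex.

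Age moved a large share of the genome by a small amount. Of 18769 probe sets 4901 rose (26.1%) and 3596 fell (19.2%), and over genes 4131 rose (34.5%) and 2748 fell (22.9%) of 11981 (57.4% in either direction). Among called probe sets 74.7% changed by less than 1.5-fold, and 124 rose (0.661%) and 100 fell (0.533%) by at least 2-fold. Over genes these numbers were 98 (0.818%) and 84 (0.701%). The number of probe sets that fell by at least 2-fold was 260 after cyclic loess normalization, 193 when every array was shifted to the same median and 157 without 45d replicate 3. Values on the 45d arrays did not overlap those on the 5d arrays in 61.2% of genes. Rises made up 57.7% of the calls, against 46% after that shift, so the split between small rises and small falls depends on the scaling. The median change over all genes was 0.05 (-0.01 after the same shift), and lists of genes are read against that value and against the shares of 34.5% and 22.9%.

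**Figure D1:**
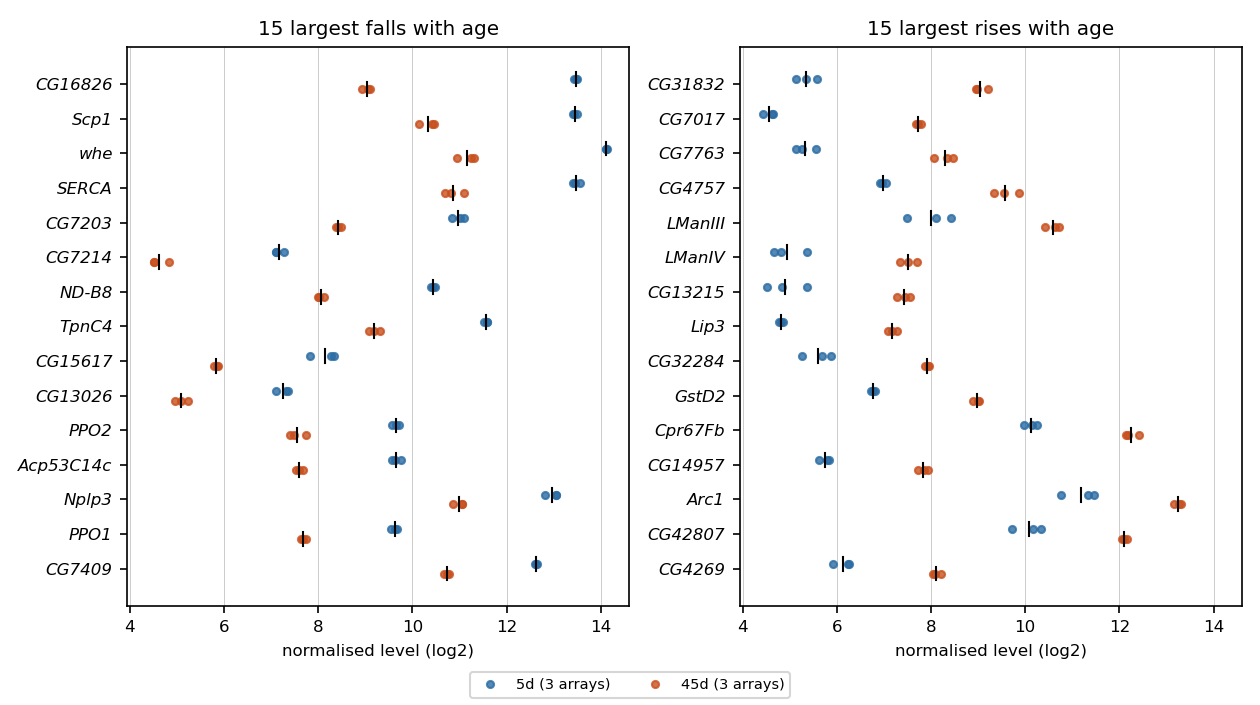
Levels (normalised, log2) of the 15 genes with the largest falls and the 15 with the largest rises on the 3 arrays of 5d and the 3 arrays of 45d flies with dSOD1 in MN; each point is an array and the black bar is the mean. Only genes whose arrays of both ages are separate were taken, which held for 61.2% of all genes. CG16826 shows the widest gap, from near 13.5 to near 9.0.

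The largest fall was that of CG16826, a gene of unknown function. CG16826 stood at 13.50, 13.42 and 13.47 on the 5d arrays and at 9.11, 9.05 and 8.93 on the 45d arrays, a change of -4.43 ± 0.09 (SE) or 21.6-fold (adjusted p = 3.96e-25). Another gene, whe, went from 14.12, 14.11 and 14.12 to 11.30, 11.25 and 10.95, a change of -2.95 ± 0.13 (SE) (adjusted p = 2.59e-17). For both genes the 5d arrays hardly differed and all 45d arrays were far below them. CG7203, CG7214, CG15617 and CG13026, all known by number only, changed by -2.55, -2.55, -2.31 and -2.17. Nplp3, which encodes a precursor of neuropeptide-like peptides, went from 12.82, 13.04 and 13.05 to 10.87, 11.06 and 11.05, a change of -1.98 ± 0.12 (SE) (adjusted p = 6.91e-14).

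Scp1 and SERCA, which handle calcium in muscle, were among the 15 largest falls. Scp1, a sarcoplasmic calcium-binding protein, went from 13.43, 13.49 and 13.40 to 10.14, 10.46 and 10.41, 8.59-fold lower (change -3.10 ± 0.07 (SE), adjusted p = 1.11e-24). SERCA, the pump that returns calcium to the sarcoplasmic reticulum, went from 13.41, 13.56 and 13.45 to 10.70, 11.09 and 10.82, 6.08-fold lower (change -2.60 ± 0.08 (SE), adjusted p = 6.11e-21). The 45d arrays of both genes lay more than 2 log2 units below every 5d array. Another pair of SERCA probe sets also fell, by 2.01 and 1.19. In RNA of whole flies, fewer cells of a type and less RNA per cell cannot be told apart, here and for every tissue named below.

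Sarcomere genes fell as a group, with 19 of 23 measured genes lower, 1 higher and a median change of -0.45. TpnC4, the troponin C of the flight muscle, stood at 11.58, 11.52 and 11.57 at 5d and at 9.19, 9.30 and 9.07 at 45d, a change of -2.37 ± 0.09 (SE) (adjusted p = 4.32e-19). Flightin (fln), a thick filament protein of the same muscle, changed by -1.49 ± 0.12 (SE), TpnC41C by -1.31 ± 0.07 (SE) and Act79B, an actin of tubular muscle, by -1.23 ± 0.06 (SE). The kettin and titin homolog sls changed by -0.93, with a second probe set at -1.09 and another at 0.17 that was not called, so its probe sets disagree. Strn-Mlck, a myosin light chain kinase, rose by 0.25 on its brightest probe set, but another changed by -1.01 (adjusted p = 3.23e-08) and a further one was not called, so its direction is not settled. Act88F, the actin of the indirect flight muscle and chosen after its values were seen, stood at 9.31, 9.40 and 9.66 and at 9.50, 9.49 and 9.22, and the ages overlapped (change -0.05 ± 0.19 (SE), adjusted p = 0.848). Thus the falls ran across both flight and tubular muscle genes but not through every one of them.

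Genes of energy metabolism fell broadly. Among the subunits of the respiratory complexes and ATP synthase 64 of 74 fell and 1 rose, with a median of -0.38 beside 0.05 for all genes. By complex, 27 of 32 measured genes of complex I fell, 3 of 3 of complex II, 7 of 10 of complex III, 13 of 14 of complex IV and 14 of 15 of ATP synthase. ND-B8 of complex I had the largest change by far and went from 10.48, 10.40 and 10.43 to 8.12, 8.0 and 8.02, 5.24-fold lower (change -2.39 ± 0.10 (SE), adjusted p = 3.68e-18). Genes whose name ends in L or L2, the mark of a second gene copy, were the next, and a split made after the values were seen put 19 of these 19 lower with a median of -0.79, against 45 of 55 and a median of -0.34 for the others. The copy COX6AL2 went from 9.56, 9.39 and 9.43 to 8.53, 8.49 and 8.52, a change of -0.94 ± 0.07 (SE) (adjusted p = 1.09e-11). UQCR-11 of complex III was the single rise, from 5.88, 5.79 and 6.01 to 6.60, 6.78 and 6.29 (0.66 ± 0.11 (SE), adjusted p = 6.58e-06).

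Genes for enzymes upstream of the respiratory chain moved the same way. In the tricarboxylic acid cycle 9 of 13 genes fell and 2 rose, with a median of -0.30. The aconitase gene mAcon1 changed by -0.65 ± 0.05 (SE), and the isocitrate dehydrogenase subunits Idh3a, Idh3b and Idh3g by -0.59, -0.59 and -0.30. The succinate dehydrogenase genes SdhD, SdhB and SdhC fell by 0.57, 0.35 and 0.15. PCB, a pyruvate carboxylase that refills the cycle, rose by 0.37, and so did Mdh1, the malate dehydrogenase of the cytosol, by 0.20. In glycolysis 7 of 13 genes fell and none rose, led by phosphofructokinase (Pfk, -0.62 ± 0.08 (SE)) and Gapdh1 (-0.61 ± 0.06 (SE)). The other 6 genes, with changes of -0.10 to 0.10, did not pass the test.

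Genes of the male reproductive tract fell. In the list of testis transcription and spermiogenesis 32 of 40 genes fell and 1 rose, with a median of -0.60, the lowest among the lists. The sperm tail gene djl went from 10.04, 10.09 and 9.78 to 8.95, 9.18 and 8.89 (change -0.97 ± 0.15 (SE), adjusted p = 5.17e-06). At the head of the list, schuy, Mst84Db, Mst98Cb and janB, changed by -0.88, -0.86, -0.83 and -0.83, and mip120, which is used outside the testis too, rose by 0.68. Of 11 genes of germline stem cells 1 was lower (bgcn, -0.43), 4 were higher (tej, bam, tud and spn-E, 0.23 to 0.33) and 6 were not called. Over all genes 22.9% fell and 34.5% rose, so the share of rises was near that of all genes. The calls of bam and spn-E were lost in 5 and 6 of the 16 alternatives. The difference between these lists was not tested, and tej was dim, with a mean over all arrays below 4.37.

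Seminal proteins of the accessory gland fell in 24 of 33 measured genes and rose in 3, with a median of -0.38. Acp53C14c stood at 9.76, 9.57 and 9.63 at 5d and at 7.58, 7.68 and 7.53 at 45d, 4.16-fold lower (change -2.06 ± 0.11 (SE), adjusted p = 7.24e-15). Acp76A, a serpin, went from 11.53, 11.44 and 11.58 to 10.01, 9.87 and 9.96 (-1.57 ± 0.11 (SE)), and Spn28F, Acp62F and Acp26Aa changed by -1.24, -0.93 and -0.88. Against this direction Acp26Ab went from 10.85, 10.63 and 10.74 to 11.51, 11.56 and 11.44, with all 45d arrays above the 5d arrays (change 0.76 ± 0.06 (SE), adjusted p = 4.25e-11), and Spn77Bb and Acp32CD rose by 0.31 and 0.19.

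The proteasome, which degrades ubiquitin-tagged proteins, split by where its genes are used. Of 27 subunits used in all tissues 21 rose and none fell, with a median of 0.24, whereas 13 of 13 testis paralogs fell, with a median of -0.52. The catalytic subunit Prosbeta5 went from 10.97, 10.86 and 10.95 to 11.44, 11.45 and 11.50 (change 0.54 ± 0.05 (SE), adjusted p = 3.03e-10), while its testis paralog Prosbeta5R1 went from 8.45, 8.57 and 8.52 to 7.56, 7.52 and 7.65 (-0.93 ± 0.07 (SE), adjusted p = 1.75e-12). Neither gene had overlapping ages, and the directions were opposite. REG, an activator of the proteasome core, and Rpt3 and Rpn5 of the regulatory particle rose by 0.56, 0.47 and 0.44. The count depends on the scaling: 15 of the 27 subunits rose after either cyclic loess normalization or a shift to the same median, with none falling.

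Ribosomal protein genes also changed in both directions. Of 40 measured genes for cytosolic ribosomal proteins 26 rose by 0.11 to 0.45 and 7 fell by 0.41 to 0.80, and all 7 that fell are second copies (RpS28-like, RpL10Aa, RpS28a, RpS19b, RpL37-2, RpL22-like and RpS10a; those beyond the first 5 were chosen after their values were seen). RpS28-like went from 8.90, 9.11 and 8.81 to 8.07, 8.25 and 8.11 (-0.80 ± 0.08 (SE), adjusted p = 4.79e-10). After a shift to the same median 16 of the 40 rose and 8 fell. Mitochondrial ribosomal proteins rose in 33 of 69 genes and fell in 7, with a median of 0.13, although 17 rose and 12 fell after cyclic loess normalization. The difference from the respiratory genes was not tested.

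**Figure D2:**
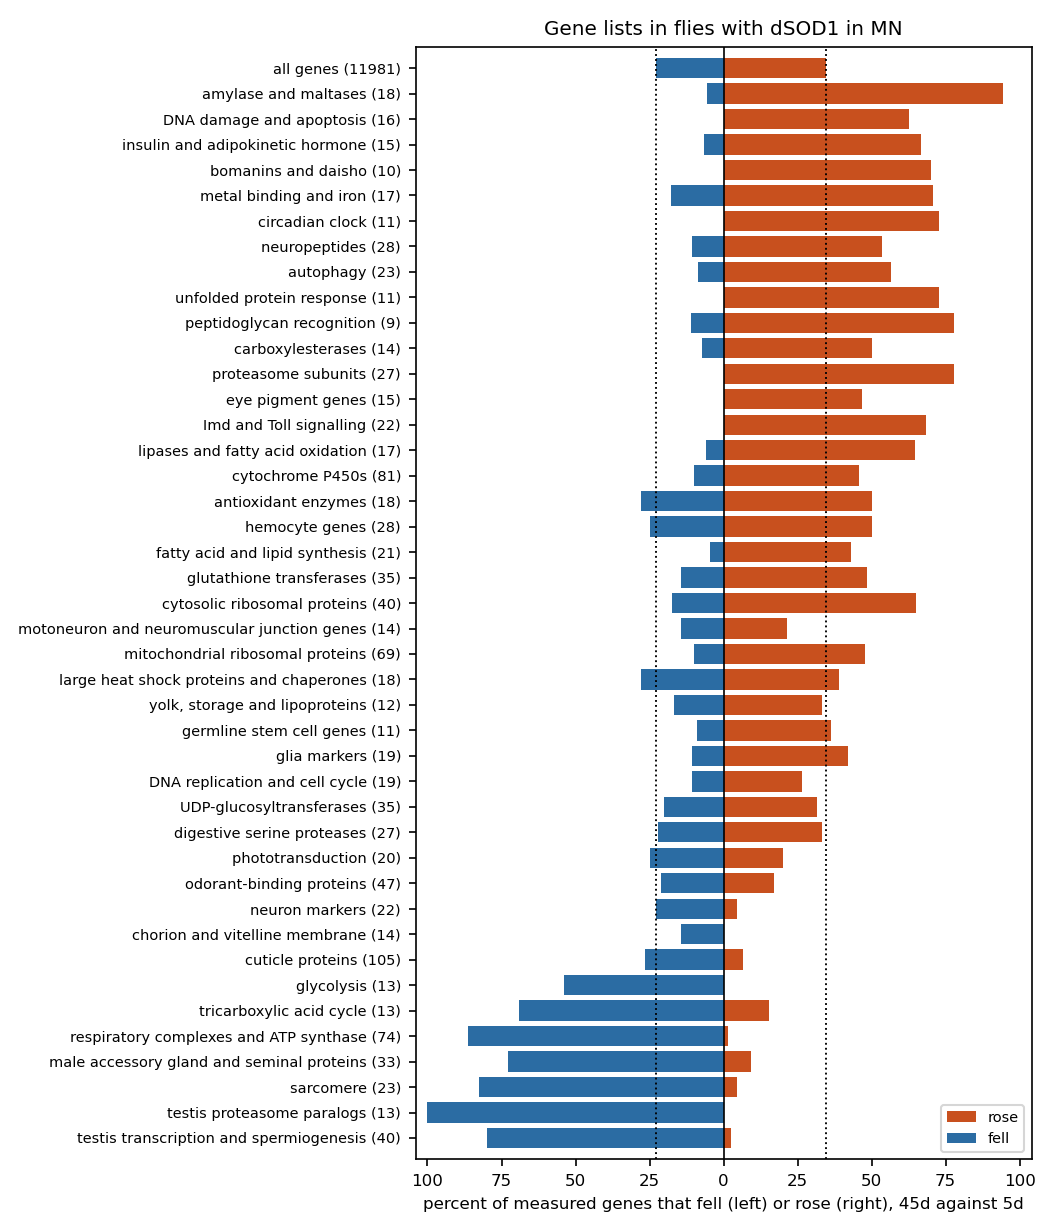
Percent of the measured genes of each list that rose (right) or fell (left) at 45d against 5d in flies with dSOD1 in MN, with the number measured in parentheses; dotted lines mark the shares over all 11981 genes (34.5% rose, 22.9% fell). Lists are ordered by median change and those with fewer than 9 measured genes are not drawn. The testis proteasome paralogs extend farthest to the left, followed by the respiratory, sarcomere, testis and accessory gland lists, and amylase and maltases farthest to the right.

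Carbohydrate digestion rose. Of 18 genes for amylase-related enzymes, maltases and mannosidases 17 rose and 1 fell (Mal-A5, -0.42), with a median of 0.69. The figures label this list amylase and maltases. The alpha-mannosidase gene LManIII stood at 8.43, 7.49 and 8.11 at 5d and at 10.64, 10.42 and 10.72 at 45d, 6.0-fold higher (change 2.58 ± 0.24 (SE), adjusted p = 3.6e-10). Its neighbour in name LManIV went from 5.38, 4.66 and 4.81 to 7.51, 7.70 and 7.35, 5.95-fold higher (2.57 ± 0.21 (SE), adjusted p = 2.09e-11). In both genes replicate 2 was the lowest 5d array and every 45d array was above all 5d arrays. LManV, Mal-B1 and Amyrel rose by 1.16, 1.11 and 1.04. Averaged over the list, 5d replicate 2 was also the lowest array, at 9.66 against 9.95 and 9.80 at 5d and 10.61 to 10.69 at 45d, and 14 genes rose without it.

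Digestive protease and lipid genes changed in both directions. Among trypsin-like and chymotrypsin-like digestive proteases 9 of 27 rose and 6 fell, close to the shares over all genes, with Jon99Ci at 0.99 ± 0.10 (SE) and Try29F at -1.10 ± 0.22 (SE). Lip3, a lipase outside the lists, went from 4.81, 4.85 and 4.77 to 7.28, 7.09 and 7.17, 5.17-fold higher (2.37 ± 0.22 (SE), adjusted p = 2.75e-10). Of genes for lipases and fatty acid oxidation 11 of 17 rose and 1 fell: brummer (bmm), the triglyceride lipase of fat stores, rose by 0.58, and magro (mag), a gut lipase, fell by 0.51. Of these 17 genes 7 rose after a shift to the same median. Of lipid synthesis genes 9 of 21 rose, led by the fatty acid synthase FASN3 (0.98 ± 0.12 (SE)) and SREBP, the transcription factor that controls them (0.67 ± 0.07 (SE)), and Dgat2 fell by 0.31.

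Insulin and adipokinetic hormone genes were higher in 10 of 15 cases, with a median of 0.44. Ilp2, an insulin-like peptide of the brain, went from 7.65, 7.43 and 7.59 to 8.05, 7.95 and 8.01 (change 0.45 ± 0.08 (SE), adjusted p = 1.41e-05), while Ilp5, made by the same cells, was the 1 gene to fall, from 7.07, 6.57 and 6.81 to 6.49, 6.12 and 6.43 (-0.47 ± 0.12 (SE), adjusted p = 0.00167). The ages were barely separate for Ilp5, with replicate 2 the lowest at each age. Akh, the hormone that mobilises stores, rose by 0.72 ± 0.07 (SE), the insulin receptor InR by 0.66 ± 0.10 (SE), the kinase Akt by 0.62 ± 0.12 (SE) and the transcription factor foxo, which insulin signalling restrains, by 0.46. ImpL2, which binds insulin-like peptides in the blood, rose by 0.59, and AkhR, tobi, S6k and Sdr by 0.48, 0.44, 0.40 and 0.28. The 4 genes that did not pass the test had changes of -0.23 to 0.16.

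Immune lists differed from each other. The lists of bomanins and daisho, of peptidoglycan recognition and of Imd and Toll signalling rose in a larger share than the 34.5% of all genes. In contrast 2 of 6 antimicrobial peptides rose, 2 of 6 genes of JAK/STAT signalling with 1 lower, 1 of 3 lysozymes (LysP, 0.35) and none of the drosomycin-like or Turandot genes. Drosomycin (Drs), an antifungal peptide under Toll control, stood at 9.85, 9.67 and 9.81 at 5d and at 11.57, 11.25 and 11.02 at 45d, 2.83-fold higher (change 1.5 ± 0.40 (SE), adjusted p = 0.00256). Defensin (Def) went from 5.69, 5.57 and 5.27 to 6.83, 6.50 and 7.39, 2.64-fold higher (1.40 ± 0.39 (SE), adjusted p = 0.00347). For these 2 peptides every 45d array was above every 5d array. Metchnikowin (Mtk) stood at 7.61, 8.58 and 7.70 and at 9.73, 8.51 and 8.61, and its ages overlapped, with 5d replicate 2 as high as the lower 45d arrays (0.99 ± 0.64 (SE), adjusted p = 0.217). DptB, CecB and AttD did not pass the test either, at 0.50 ± 0.74 (SE), 0.03 ± 0.20 (SE) and -0.79 ± 0.41 (SE). In a fit on the arrays compared alone Mtk (adjusted p = 0.0399) and AttD (adjusted p = 0.015) passed it, AttD as a fall.

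The list of bomanins and daisho, secreted peptides released under Toll control, rose in 7 of 10 measured genes and fell in none. BomS5 went from 10.89, 10.86 and 10.69 to 12.09, 11.89 and 11.67 (1.07 ± 0.18 (SE), adjusted p = 1.17e-05), and BomBc3, Bbd, CG5773, BomT2, BomT3 and BomS6 rose by 0.74, 0.73, 0.56, 0.44, 0.43 and 0.23. The other 3 were not called (0.10 to 0.22). Receptors and enzymes that bind peptidoglycan rose in 7 of 9 genes: PGRP-SB1 by 0.66 ± 0.26 (SE), PGRP-LB by 0.65 ± 0.11 (SE) and PGRP-LF by 0.61 ± 0.09 (SE), with PGRP-SB2 lower by 0.24. PGRP-SB1 was not called without 45d replicate 1 or 2 or without 5d replicate 2 or 3, with adjusted p up to 0.112. The count of the list depends on the scaling, with 3 rises after cyclic loess normalization and 4 after a shift to the same median. In the signalling parts of both pathways 15 of 22 genes rose and none fell (8 after cyclic loess normalization), among them the Toll kinase pll (0.55), its adaptor tub (0.47) and the Imd transcription factor Rel (0.39). Drosomycin-like genes, named for their sequence, did not follow Drs: Drsl4, Drsl3 and Drsl5 changed by -0.89, -0.27 and -0.23 and the other 3 were not called. The 5 measured Turandot genes, humoral stress factors, lay between -0.20 and -0.08 and none was called.

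Among genes of hemocytes, the blood cells, 14 of 28 rose and 7 fell, beside 34.5% and 22.9% over all genes. The prophenoloxidases of crystal cells, which make melanin, fell the most. PPO2 went from 9.65, 9.56 and 9.72 to 7.48, 7.39 and 7.74, 4.30-fold lower (change -2.10 ± 0.11 (SE), adjusted p = 3.27e-15), and PPO1 from 9.63, 9.55 and 9.67 to 7.74, 7.67 and 7.64, 3.83-fold lower (-1.94 ± 0.10 (SE), adjusted p = 1.45e-15). In the same arrays lz, the transcription factor of crystal cells, went from 3.91, 4.21 and 3.97 to 4.28, 4.67 and 4.69 (0.52 ± 0.10 (SE), adjusted p = 9.64e-05). Among the other genes of the list, crq, a scavenger receptor, rose by 0.70, NimC1 by 0.50 and the hemocyte factor srp by 0.74. The collagen IV genes Col4a1 and vkg changed by -0.39 and -0.30 and Pxn by -0.26, with Sr-CII and NimA at -0.25 and -0.21.

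**Figure D3:**
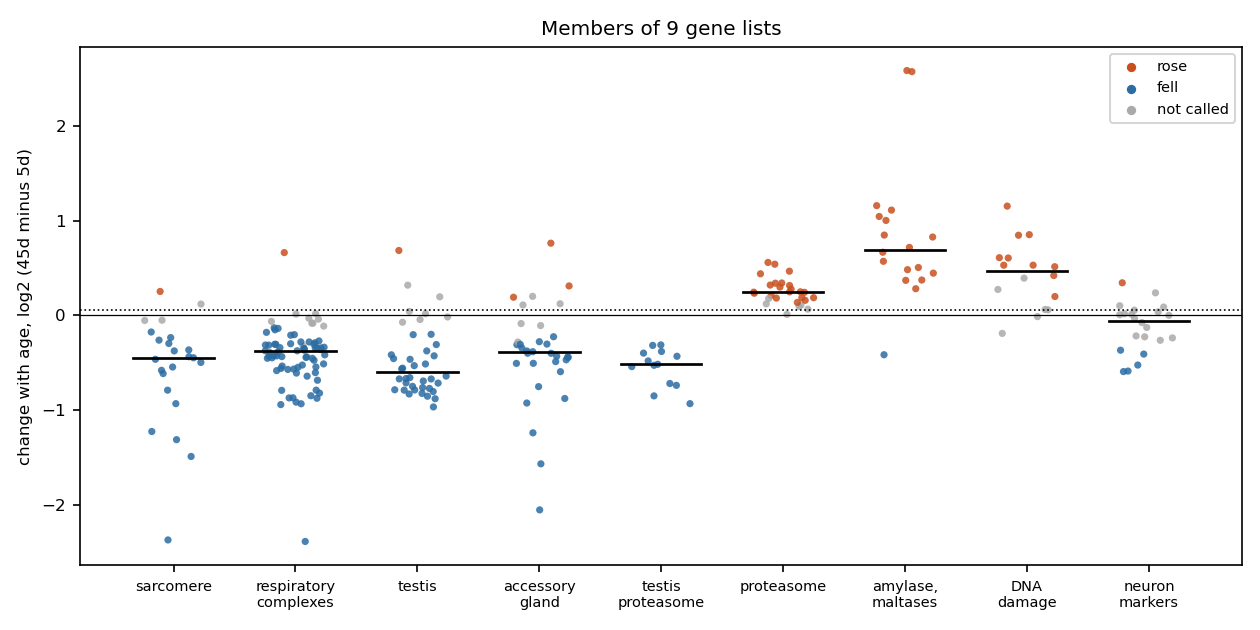
Change with age (log2, 45d minus 5d) of every measured member of 9 gene lists in flies with dSOD1 in MN; each point is a gene, coloured by its call, the black bar is the list's median and the dotted line the median of all genes (0.05). The proteasome used in all tissues and its testis paralogs lie on opposite sides of 0, and ND-B8 (-2.39) and TpnC4 (-2.37) are the lowest points.

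Small heat shock proteins, chaperones of the crystallin family, fell in 5 of 6 measured genes and rose in 1. Other small heat shock proteins, such as Hsp22, are not among these 6. CG7409 went from 12.65, 12.59 and 12.63 to 10.74, 10.78 and 10.66, 3.72-fold lower (change -1.90 ± 0.07 (SE), adjusted p = 6.59e-20). CG4461, Hsp27, CG13133 and Hsp26 changed by -0.85 ± 0.08 (SE), -0.42 ± 0.08 (SE), -0.41 ± 0.10 (SE) and -0.26 ± 0.07 (SE). The single rise was that of l(2)efl, which went from 11.92, 12.03 and 11.83 to 12.57, 12.63 and 12.69 (0.70 ± 0.08 (SE), adjusted p = 3.33e-08). In each of these 6 genes the ages were separate. Of 18 larger heat shock proteins and chaperones 7 rose and 5 fell. The genes that fell were Hsc70-2, Hsp60B, Hsp60D, Hsp60C and CG9920 (-0.92 to -0.62), of which Hsp60B is required for sperm formation. The probe sets of Hsc70-1, chosen after their values were seen, disagree, with the brightest not called (0.08) and the others at -1.49 and -1.41 (adjusted p = 2.21e-19 and 1.8e-19). The 5 largest rises were those of the co-chaperone stv (0.63 ± 0.08 (SE)), the mitochondrial chaperone Hsc70-5 (0.49), the heat shock factor Hsf (0.41), mrj (0.33) and the mitochondrial chaperonin Hsp60A (0.31).

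Genes of the unfolded protein response rose in 8 of 11 cases and fell in none, with a median of 0.26. The sensors of unfolded protein in the endoplasmic reticulum, PEK, Atf6 and Ire1, rose by 0.45, 0.38 and 0.26, and the chaperone Hsc70-3 (BiP) went from 11.75, 11.59 and 11.60 to 11.93, 12.02 and 11.92 (0.31 ± 0.06 (SE), adjusted p = 0.000123). Sil1, P58IPK, crc and Cnx99A rose by 0.46, 0.30, 0.23 and 0.13 and the other 3 genes were not called (0.03 to 0.13). Of 23 autophagy genes 13 rose, including Atg18b, Atg5, Atg13, the receptor ref(2)P (p62) and Atg7 by 0.54, 0.53, 0.48, 0.47 and 0.40. Atg8b, a form of Atg8 used in the testis, fell by 0.88, and Atg16 by 0.26.

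DNA damage and apoptosis genes rose in 10 of 16 cases and fell in none, with a median of 0.47. Irbp (Ku70), which binds broken DNA ends, stood at 5.62, 5.58 and 5.23 at 5d and at 6.66, 6.61 and 6.62 at 45d, 2.22-fold higher (change 1.15 ± 0.10 (SE), adjusted p = 1.65e-10). Its partner Ku80 went from 5.87, 5.71 and 5.88 to 6.65, 6.71 and 6.65 (0.85 ± 0.08 (SE), adjusted p = 6.2e-10), and tefu, the fly ATM kinase, from 6.86, 7.10 and 6.88 to 7.62, 7.84 and 7.92 (0.85 ± 0.09 (SE), adjusted p = 3.8e-09). All 3 genes had each 45d array above each 5d array. p53, Irbp18, RPA1 and the checkpoint kinase lok rose by 0.61, 0.60, 0.53 and 0.53. Of the death genes egr, Dark and grim rose by 0.51, 0.42 and 0.20, whereas 6 genes of the list were not called (-0.19 to 0.39). The mean of grim over all arrays was below 4.37, so it was dim. In DNA replication and the cell cycle 5 of 19 genes rose and 2 fell, beside 34.5% and 22.9% over all genes. RnrL, a subunit of ribonucleotide reductase, was the largest, from 5.09, 4.88 and 5.03 to 6.0, 6.20 and 6.27 (1.16 ± 0.12 (SE), adjusted p = 5.12e-09), and CycD and Mcm2 followed at 0.71 and 0.48.

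Metal-binding genes rose in 12 of 17 cases and fell in 3. The metallothionein MtnB, which binds copper and cadmium, stood at 8.70, 8.15 and 9.10 at 5d and at 10.10, 10.71 and 10.07 at 45d, 3.13-fold higher (change 1.65 ± 0.33 (SE), adjusted p = 0.000105), and its spread between pools was wide at both ages. MtnD rose by 1.0 ± 0.24 (SE), MtnC by 0.70, and MTF-1, the transcription factor that switches on metallothioneins, by 0.74 ± 0.08 (SE). Mvl, a metal transporter, rose by 0.65. The copper transporters ATP7 and Ctr1C fell by 0.52 and 0.40, and Fer3HCH, the mitochondrial ferritin, by 0.70.

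Antioxidant enzymes rose in 9 of 18 cases and fell in 5. Sod2, the superoxide dismutase of mitochondria, went from 11.67, 11.65 and 11.68 to 11.44, 11.47 and 11.49 (-0.20 ± 0.06 (SE), adjusted p = 0.00447). MsrA, which repairs oxidised methionine, went from 8.88, 8.73 and 8.95 to 9.51, 9.37 and 9.47 (0.60 ± 0.10 (SE), adjusted p = 5.49e-06). The changes were small but exceeded the spread of the arrays in both genes. Trxr1, Men, Gclm and Idh, which supply reduced thioredoxin, NADPH or glutathione, rose by 0.31 to 0.35. TrxT, a thioredoxin of the testis, and Trxr2 fell by 0.82 and 0.81, Prx6c by 0.51 and the folate enzyme Nmdmc by 0.93. Cat, the catalase gene, chosen after its values were seen, rose by 0.19 ± 0.06 (SE). After a shift to the same median 5 of these 18 genes rose and 6 fell, so the direction of the list as a whole is not fixed.

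Detoxification genes were led by glutathione transferases. GstD2 stood at 6.73, 6.77 and 6.82 at 5d and at 8.89, 9.02 and 8.99 at 45d, 4.58-fold higher (change 2.19 ± 0.10 (SE), adjusted p = 3.71e-17), and GstD5 went from 5.02, 5.38 and 5.24 to 6.68, 7.52 and 6.59 (1.72 ± 0.21 (SE), adjusted p = 4.56e-08). Members of one cluster share sequence, and the probe sets of GstD genes may not be fully separate. Of 35 glutathione transferases 17 rose and 5 fell, the latter led by GstE14 (-0.47). Of 81 cytochrome P450s 37 rose and 8 fell, from Cyp312a1 (-0.61) to Cyp6d2 (0.98 ± 0.08 (SE)). UDP-glucosyltransferases rose in 11 of 35 cases and fell in 7, near the shares over all genes, and Ugt37A2 had the largest change (-1.09 ± 0.11 (SE)).

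Neuron markers changed little. Of 22 genes 1 rose (Rbp9, 0.34) and 5 fell, beside 34.5% and 22.9% over all genes, and the median was -0.06. The genes that fell were futsch, a microtubule protein of axons (-0.59 ± 0.10 (SE)), Gad1, which makes GABA (-0.59 ± 0.11 (SE)), nrv3 (-0.53), the GABA receptor Rdl (-0.41) and the sodium channel para (-0.37 ± 0.12 (SE)). Of the 3 futsch probe sets the others, at -0.16 and -0.22, were not called. The pan-neuronal gene elav, chosen after its values were seen, stood at 8.59, 8.58 and 8.35 and at 8.69, 8.93 and 8.07, with overlapping ages (0.05 ± 0.21 (SE), adjusted p = 0.862). VGlut, the transporter that marks the glutamatergic MN, was dim, with a mean over all arrays of 4.38, beside 4.37 for the 25th percentile of all probe sets, so that a change could go unseen. It stood at 4.39, 4.39 and 4.34 and at 4.34, 4.29 and 4.26, with the 45d arrays at or below the 5d arrays and no call (-0.08 ± 0.09 (SE), adjusted p = 0.528). In whole flies the list averaged 8.26, 8.47 and 8.36 on the 5d arrays and 8.16, 8.30 and 8.25 on the 45d arrays.

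Genes of MN and of the neuromuscular junction rose in 3 of 14 cases and fell in 2, beside 34.5% and 22.9% over all genes. The MN transcription factor exex (Hb9) went from 6.66, 6.50 and 6.30 to 6.95, 7.25 and 7.38 (0.70 ± 0.13 (SE), adjusted p = 5.49e-05), the glutamate receptor subunit GluRIID rose by 0.54 ± 0.15 (SE) and gbb, the muscle-derived growth signal, by 0.41 ± 0.05 (SE). Hk, a potassium channel subunit, and nwk, which limits growth of the synapse, fell by 0.52 and 0.30. The other 9 genes, with further glutamate receptor subunits among them, were not called on their brightest probe sets (-0.21 to 0.28). The probe sets of dlg1, chosen after their values were seen, disagree. Its brightest (0.18) and another (0.06) were not called, whereas others rose by 0.56 and 0.56 (adjusted p = 8.51e-06 and 1.82e-05). MN are a small part of the fly, and their RNA cannot be told apart from that of other cells here.

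Glia markers rose in 8 of 19 cases and fell in 2, with a median of 0.09 that turned to -0.01 after cyclic loess normalization. Gliotactin (Gli), a protein of the blood-brain barrier and other septate junctions, went from 7.95, 8.04 and 7.96 to 8.78, 9.06 and 8.97 (0.95 ± 0.10 (SE), adjusted p = 2.15e-09). moody, a receptor of barrier glia, and wrapper, of midline glia, rose by 0.65 and 0.65. repo, the factor that defines lateral glia, stood at 7.81, 8.31 and 7.96 at 5d and at 8.34, 8.51 and 8.61 at 45d (0.46 ± 0.09 (SE), adjusted p = 0.000119), with little space between the ages. ebony (e), of amine-recycling glia and cuticle, fell by 0.55.

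Clock genes rose in 8 of 11 cases and fell in none. timeless (tim) went from 9.40, 9.72 and 9.66 to 10.34, 10.47 and 10.60 (0.88 ± 0.11 (SE), adjusted p = 9.1e-08) and clockwork orange (cwo) from 9.04, 9.57 and 9.16 to 9.87, 10.11 and 9.91 (0.71 ± 0.14 (SE), adjusted p = 6.65e-05). vri, per, cyc, Pdf, Pdp1 and cry rose by 0.67, 0.45, 0.33, 0.32, 0.28 and 0.26, and the other 3 were not called (-0.03 to 0.13). Several of these transcripts cycle over the day, and the hour of freezing is not given in the sources used here. Leaving out 5d replicate 3 leaves 6 of the 8 rises.

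Neuropeptide precursors rose in 15 of 28 cases and fell in 3. Corazonin (Crz) went from 6.57, 6.25 and 6.24 to 7.20, 7.19 and 7.19 (0.84 ± 0.10 (SE), adjusted p = 8.1e-08) and sNPF from 6.14, 6.95 and 6.27 to 7.12, 7.41 and 7.30 (0.82 ± 0.16 (SE), adjusted p = 9.72e-05), with 5d replicate 2 of sNPF the closest to the 45d arrays. FMRFa and AstC rose by 0.69 and 0.63. Besides Nplp3, SIFa and ETH fell by 0.63 and 0.58. Arc1, whose mRNA travels between neurons and muscle in capsid-like particles, had one of the 15 largest rises, from 11.33, 10.77 and 11.46 to 13.31, 13.27 and 13.16, 4.16-fold (2.06 ± 0.13 (SE), adjusted p = 1.24e-13).

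In the eye, 4 of 20 phototransduction genes rose and 5 fell, beside 34.5% and 22.9% over all genes. retinin, a protein of the corneal lens, went from 12.48, 12.47 and 12.66 to 11.18, 11.14 and 11.09, 2.63-fold lower (-1.40 ± 0.09 (SE), adjusted p = 2.5e-13), and Gbeta76C, Pdh, chp and inaC fell by 0.55, 0.45, 0.25 and 0.21. Cuticle proteins fell in 28 of 105 cases, near the share over all genes, and rose in 7, a smaller share than over all genes. Cpr49Ae went from 11.42, 11.32 and 11.48 to 10.08, 10.00 and 10.19 (-1.32 ± 0.08 (SE), adjusted p = 9.3e-14), while Cpr67Fb rose 4.35-fold, from 10.15, 9.97 and 10.26 to 12.42, 12.14 and 12.18. Of 47 odorant-binding proteins 10 fell, near the share over all genes, and 8 rose, from Obp99a at -0.99 ± 0.07 (SE) to Obp56a at 0.89 ± 0.12 (SE).

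Most other large rises were those of genes known by number. CG31832 stood at 5.57, 5.13 and 5.34 at 5d and at 8.95, 8.97 and 9.21 at 45d, 13.0-fold higher (change 3.70 ± 0.13 (SE), adjusted p = 4.87e-20). CG7017 went from 4.62, 4.43 and 4.64 to 7.78, 7.73 and 7.68, 8.99-fold higher (3.17 ± 0.15 (SE), adjusted p = 1.97e-16), and CG7763 from 5.26, 5.13 and 5.57 to 8.06, 8.33 and 8.47, 7.82-fold higher (2.97 ± 0.16 (SE), adjusted p = 5.5e-15). These were the 3 largest rises, each with 45d arrays more than 2 log2 units above the highest 5d array. CG4757, CG13215, CG32284, CG14957, CG42807 and CG4269 rose by 2.60, 2.52, 2.31, 2.08, 2.03 and 1.97.

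The next question was whether the age change of this line differs from that of other lines, which was tested as the difference between the 2 age changes in the same model. The lines share no array. Over all probe sets the age change differed from that of flies with dSOD1 in glia in 582 cases (3.10%), from that with dSOD1 in MN+glia in 524 (2.79%) and from that with G85R in MN in 279 (1.49%). The change was more positive here in 347 (1.85%), 326 (1.74%) and 155 (0.826%) cases and more negative in 235 (1.25%), 198 (1.05%) and 124 (0.661%). These counts were 2526, 2256 and 999 with array weights, and those against MN+glia dSOD1 and MN G85R fell to 320 and 157 without 45d replicate 2. Without the array of MN+glia G85R flies that stood apart they were 823, 735 and 401. Of the 124 rises of at least 2-fold, 115, 112 and 117 were called as rises of any size in the 3 other lines. Of the 100 such falls, 97, 97 and 96 were called as falls of any size. At least 2-fold there too were 74, 70 and 79 of the rises and 58, 57 and 59 of the falls. Among all probe sets that rose here at any size, 68.9%, 63.9% and 70.1% also rose there. Among those that fell, 73.1%, 72.4% and 72.3% also fell there. In those lines 4189, 3875 and 4092 probe sets rose and 3405, 3307 and 3273 fell. Across probe sets the age change correlated with that of the other lines at r = 0.836, 0.834 and 0.845, as a description, since probe sets on one array share their RNA and normalisation. Side by side, Scp1 changed by -3.10 here and by -3.08, -3.26 and -3.45 in flies with dSOD1 in glia, dSOD1 in MN+glia and G85R in MN, and PPO2 by -2.10 here and by -2.25, -1.37 and -1.92.

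CG16826 and whe fell with age in all 3 lines with dSOD1 (CG16826 changed by -4.43 here, -5.96 in glia and -5.94 in MN+glia flies) and stood level in flies with G85R in MN. Their means in flies with G85R in MN were 13.52 and 13.60 for CG16826 and 14.17 and 14.16 for whe at 5d and 45d, against 9.03 and 11.17 at 45d here, and the age change differed by -4.51 ± 0.13 for CG16826 (adjusted p = 5.95e-21) and -2.94 ± 0.18 for whe (adjusted p = 1.79e-12). Compared with MN+glia dSOD1 flies the fall of whe was smaller here, by 2.13 ± 0.18 (adjusted p = 3.01e-09). AttD, an antibacterial attacin, went from 5.10, 5.75 and 4.91 at 5d to 4.60, 4.11 and 4.68 at 45d here but changed by 2.49 in G85R flies (-3.28 ± 0.58, adjusted p = 0.00138) and by 1.62 in flies with dSOD1 in glia (-2.41 ± 0.58, adjusted p = 0.0142).

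CG7763 and CG31832 showed the largest excess rises. CG7763 changed by 2.97 here and by 3.08 under the same driver with G85R, but by -0.12 with dSOD1 in glia (3.09 ± 0.23, adjusted p = 2.43e-10) and by 0.84 in MN+glia (2.13 ± 0.23, adjusted p = 3.83e-07). CG31832 changed by 3.70 here and by 2.98, 0.92 and 1.94 in the glia, MN+glia and G85R lines, which differed from MN+glia by 2.79 ± 0.18 (adjusted p = 2.44e-12) and from G85R by 1.76 ± 0.18 (adjusted p = 1.31e-07). MtnB went the other way and rose less here than in glia (-2.45 ± 0.46, adjusted p = 0.00137) or MN+glia flies (-2.25 ± 0.46, adjusted p = 0.0049), from a 5d mean of 8.65 here against 6.67 and 6.99 there to 45d means of 10.29, 10.76 and 10.88. Hence the 5d levels of MtnB lay apart between lines, and the 45d levels close together. Nmdmc, which fell here by 0.93, changed by 0.82 with dSOD1 in glia (-1.75 ± 0.25, adjusted p = 4.59e-05).

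**Figure D4:**
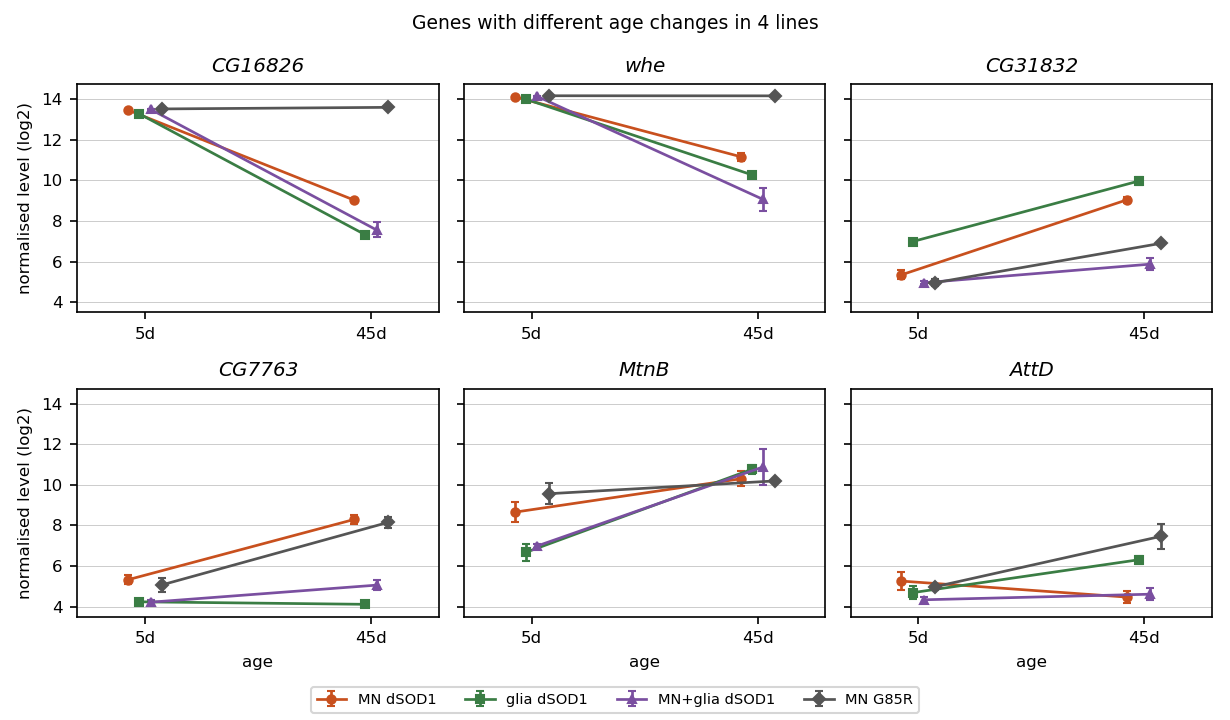
Mean levels (normalised, log2; bars are SD of 3 arrays) at 5d and 45d of 6 genes whose age change differed between flies with dSOD1 in MN and at least 1 of 3 other lines. CG16826 and whe stay near 13.5 and 14.2 in flies with G85R in MN, CG7763 rises in both lines with the MN driver alone, and MtnB starts higher in both of those lines.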

How the data were processed

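Total RNA from pools of 40 whole males was hybridised to Affymetrix Drosophila arrays. The authors made the deposited log2 values from the scanned arrays by robust multiarray averaging (RMA) in Robin, which subtracts background, brings arrays to common quantiles and combines the probes of a set. The version of RMA is not given in the sources used here, nor whether all arrays were normalised together. Quantile scaling forces arrays to one distribution, so a shift of all transcripts cannot be seen. Groups come from the sample titles. The 18952 probe sets include 183 controls, not used here, and 13647 of the other 18769 carry 1 gene symbol, 402 several and 4720 none. Symbols come from the platform annotation, updated by gene ID through a RefSeq table (13544 matched). With R 4.3.3 and limma 3.58.1 each group of the 36 arrays was given its own mean in 1 linear model (24 residual and 5.77 prior degrees of freedom), without trend or block. The model was tested on simulated data. Benjamini-Hochberg adjustment ran over all probe sets of a comparison, and calls were made at 0.05. The 3 pools per age limit the precision.

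The members and the 48 gene lists were chosen with earlier results of these data known. Genes named are the 15 largest rises and falls with separate ages, up to 5 called genes each way per list, further members of lists with up to 16 measured genes, and the 5 largest differences each way from each other line. Members of lists that did not pass the test are given by their range in places, and further names are said to be chosen after their values were seen. Alternatives were quantile or cyclic loess normalization, a shift to the same median, a filter on dim probe sets (mean below 4.37, the 25th percentile), an eBayes trend, array weights, fewer arrays in the fit, the replicate number as a block, 1 probe set per gene and leaving out each array. Some genes are not reported here.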

Additional observations from a re-analysis of the deposited data

Results flagged for a closer look

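Age changes that differed between this line and another by the test of the difference itself are given here as the difference in log2 units, this line minus the other; the 5 largest each way were taken for each line. Against flies with dSOD1 in glia the change was more positive here for CG7763 by 3.09, CG17192 by 2.13, CG33109 by 2.08, CG13026 by 2.02 and ninaD, a carotenoid receptor, by 1.64. It was more negative or less positive for MtnB (-2.45), AttD (-2.41), CG34040 (-2.10), Nmdmc (-1.75) and CG14499 (-1.75). CG17192, CG33109, AttD and CG14499 did not pass the test of age here, at -0.17, -0.10, -0.79 and -0.11, beside changes of -2.30, -2.19, 1.62 and 1.63 in the glia line.

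Against flies with dSOD1 in MN+glia the difference was 2.79 for CG31832, 2.65 for CG33109, 2.13 for whe, 2.13 for CG7763 and 1.90 for the lysozyme LysP, and on the other side -2.25 for MtnB, -1.88 for Dtg, -1.64 for the yolk protein Yp1, -1.57 for CG9689 and -1.54 for CG13482. Yp1 stood at 4.06, 5.34 and 3.80 at 5d and at 5.55, 4.84 and 5.13 at 45d here, and its ages overlapped although the model called a rise (0.78 ± 0.30 (SE), adjusted p = 0.0361). Replicate 2 held the highest 5d value and the lowest 45d value.

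Against flies with G85R in MN the difference was 1.76 for CG31832, 1.39 for hdly, 1.33 for CG13813, 1.29 for CG13215 and 1.16 for CG4408. It was -4.51 for CG16826, -3.28 for AttD, -2.94 for whe, -2.69 for the alkaline phosphatase Alp8 and -2.38 for CG31041. The rises of hdly (1.54 here, 0.15 with G85R) and CG4408 (1.08 and -0.08) were seen with dSOD1 in glia (2.25 and 0.81) and MN+glia too (1.82 and 0.95). Alp8 changed by 0.05 here and by 2.74 with G85R in MN. CG13813 was dim, with a mean over all arrays of 3.94.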

How the results depend on the processing

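Precision is limited by 3 pools per age. The rises (4901) stayed between 3863 and 5562 probe sets and the falls (3596) between 2829 and 4829 under all 16 alternatives. The falls of at least 2-fold, 100 as deposited, numbered 260 after cyclic loess normalization and 193 with arrays shifted to the same median, whereas the rises of at least 2-fold stayed between 98 and 134. The cause was not tested. Array weights raised the counts of probe sets whose age change differed from that in glia dSOD1, MN+glia dSOD1 and MN G85R flies from 582, 524 and 279 to 2526, 2256 and 999, and a fit on the arrays compared alone gave 322 for MN+glia dSOD1 and 153 for MN G85R. Leaving out each array in turn gave 4251 to 4770 rises, 3057 to 3692 falls, 122 to 134 rises and 90 to 157 falls of at least 2-fold, and 393 to 823, 320 to 638 and 157 to 285 differences from glia dSOD1, MN+glia dSOD1 and MN G85R. Outside a factor of 1.5 lay the 157 falls without 45d replicate 3, the 320 and 347 differences from MN+glia dSOD1 without 45d replicates 2 and 3, and the 157 from MN G85R without 45d replicate 2.

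Deviations of same-numbered arrays of both ages correlated at 0.27, 0.26 and -0.20, and those of differently numbered arrays at -0.48 to 0.36. With 3 arrays per age, whose deviations depend on each other, this cannot decide whether replicate numbers pair the arrays. With the replicate block within each line 4900 probe sets rose and 3674 fell, 124 and 100 of them by at least 2-fold, and 558, 525 and 228 differed from the 3 other lines. Of the named genes Drsl3 lost its call under the block (adjusted p = 0.0572) and AttD gained one as a fall (adjusted p = 0.0302).

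Of the named genes 216 kept their direction and their side of the threshold in every alternative that held them. Among the genes removed by the filter on dim probe sets were lz, grim, tej and CG13813. For 30 genes with changes of 0.13 to 0.78 in size a call was lost somewhere. Without 5d replicate 1 these were Acp32CD, Dgat2, Drsl3, Ire1, NimA, PGRP-SB2, Pdp1, SdhC, Strn-Mlck, Yp1, bam and grim (adjusted p up to 0.215). Without 5d replicate 2 they were Acp32CD, BomT3, PGRP-SB1, Pxn, Sr-CII, chp, inaC, ninaD, nwk, spn-E and tobi (up to 0.282), and without 5d replicate 3 Drsl3, PGRP-SB1, PGRP-SB2, Pdp1, Pxn, Rel, SdhC, Yp1, bam, foxo, grim, para, per and spn-E (up to 0.258). Without 45d replicate 1 they were Acp32CD, BomT3, Drsl3, PGRP-SB1, Pxn, SdhC, Sr-CII, Yp1, bam, chp and para (up to 0.317), without 45d replicate 2 Dgat2, Drsl3, Drsl5, Ire1, NimA, PGRP-SB1, PGRP-SB2, Pdp1, Pxn, Sr-CII, Strn-Mlck, foxo, grim, spn-E and tej (up to 0.18), and without 45d replicate 3 Acp32CD, Cnx99A, Dgat2, Drsl3, Pdp1, Pxn, Yp1, bam, spn-E and tobi (up to 0.132). Scaling or the arrays in the fit also removed calls of Cat and others, 14 after cyclic loess normalization, 12 after a shift to the same median, 8 after quantile normalization and 11 in the fit on the arrays compared. In that fit Mtk (adjusted p = 0.0399) and AttD (adjusted p = 0.015) gained a call. Only genes that did not pass the test turned sign. With arrays shifted to the same median the changes were -0.0136 for Alp8, -0.0291 for CecB and -0.009 for elav, with array weights -0.0398 for CecB, with cyclic loess normalization -0.0504 for elav and -0.006 for Hsc70-1 and with quantile normalization -0.0103 for CG13482. Leaving out single arrays gave -0.13 to 0.0481 for Act88F, -0.0067 to 0.0852 for Alp8, -0.23 to 0.0706 for CG14499, -0.19 to 0.0003 for CG33109, -0.0052 to 0.0845 for CecB and -0.13 to 0.3007 for elav.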
